A study of Mus musculus with 2 samples.

Results

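The T-box transcription factors are described here in crypts of the mouse small intestine, in 1 wild-type library and 1 Eed knockout library. Of 10 family members taken by name (Tbx1, Tbx2, Tbx3, Tbx4, Tbx5, Tbx6, Tbx15, Tbx18, Tbx20 and Eomes), 9 had a row among the 17216 genes measured, and Tbx1 was not analysed here. Members were found by symbol, from a list drawn up with earlier results of these data known, and a symbol with several rows is represented by the row with the highest mean. Both groups were C57BL/6 mice that carried AhCre, a Cre recombinase under a promoter that answers to aryl hydrocarbon receptor ligands. Both were given β-naphthoflavone, a ligand that induces this promoter, in 3 injections, and crypts were collected 15 days after injection. The knockout additionally carried Eedfl/fl, the floxed Eed gene, whose product belongs to the core of Polycomb repressive complex 2 (PRC2). The promoter drives Cre in any cell that answers to the ligand, and the labels give neither the age of the animals nor whether several were pooled.

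T-box proteins share a DNA-binding domain first known from Brachyury and act as activators or repressors of developmental genes. They pattern mesoderm, heart, limbs, skeleton and pharynx in the embryo, and a few of them serve in immune cells. Adult intestinal epithelium is not a tissue for which most of them are known. PRC2 methylates histone H3 on a lysine and keeps many such developmental genes silent in tissues that do not use them.

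Reads counted on RefSeq transcripts came to 6970733 in the wild-type library and to 5918162 in the knockout library. Eed (NM_021876), the targeted gene, had 588 and 183 reads, 3.08-fold lower in the knockout library (95% counting interval 2.61 to 3.66). The authors' deposited DESeq table gives Eed an unadjusted p of 0.0117 and an adjusted p of 0.534. Crypt epithelium markers were abundant in both libraries: the 12 listed had from 499 to 9411 wild-type reads and from 649 to 10766 knockout reads, and none of them differed by 2-fold. With 1 library per genotype there is no replicate and no test of genotype. Every interval below is an exact 95% interval that covers counting error only. Reads amplified without molecular identifiers are not separate molecules, so the intervals may be too narrow even for counting error. Pairs of reads list the wild type before the knockout, and a ratio divides the knockout by the wild type after scaling with the authors' size factors. In bulk crypt RNA, fewer cells of a type and less RNA per cell cannot be told apart.

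Across the family, reads went from few in the wild-type library to many in the knockout library for 3 genes, Tbx15, Tbx18 and Tbx20. The 9 genes together had 76 wild-type and 772 knockout reads. In the wild type, Tbx3 alone made up 64.5% of these reads. In the knockout, Tbx15 and Tbx18 together made up 82.9%, against 5.26% in the wild type. The family total therefore rests on different genes in each library.

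**Figure D1:**
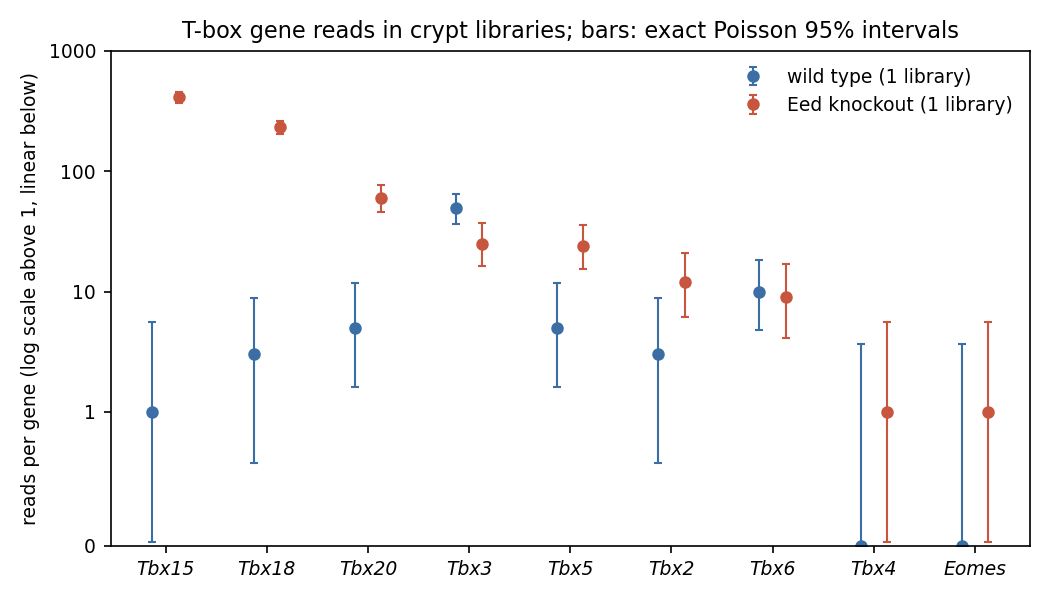
Reads per T-box gene (vertical axis, log scale above 1 and linear below) in the 1 wild-type and the 1 Eed knockout library, with bars for exact Poisson 95% intervals. Tbx15, Tbx18 and Tbx20 had 1, 3 and 5 wild-type reads against 409, 231 and 60 knockout reads, while Tbx3 and Tbx6 had no more in the knockout than in the wild type.

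Tbx15 (NM_009323, chromosome 3), a factor of skeletal growth and of dorsal skin patterning, had 1 wild-type read and 409 knockout reads. Its ratio was 426 (76.1 to 16877), and the width of that interval comes from the single wild-type read. Per length, Tbx15 stood at 0.280 reads per kilobase in the wild-type library and at 115 in the knockout library. These levels were at or above those of 10.6% and 68.4% of the 16846 genes with a known transcript length, so Tbx15 went from the lowest part of the range to above the middle. In the authors' deposited table its adjusted p was 3.74e-09.

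Tbx18 (NM_023814, chromosome 9), a factor of the epicardium, the sinus node and the ureter mesenchyme, had 3 and 231 reads. The ratio was 80.3 (27.1 to 392). Its level per length went from 0.641 reads per kilobase in the wild-type library to 49.4 in the knockout library, at or above 15.4% and 54.8% of genes. The authors' deposited table gives Tbx18 an adjusted p of 7.52e-05. Tbx15 and Tbx18 are close paralogues, and the intervals of their ratios overlap.

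Tbx20 (NM_194263, chromosome 9), which is required for heart development, had 5 and 60 reads and a ratio of 12.5 (5.07 to 39.9). That interval overlaps the one of Tbx18 but lies below the one of Tbx15. Its knockout level per length, 6.60 reads per kilobase, was at or above 32.8% of genes. The authors' deposited table gives Tbx20 an unadjusted p of 0.0341 and an adjusted p of 1. The authors' deposited table thus called 2 of the 9 members at an adjusted p under 0.05, both higher, where 0.89% of all its rows were called higher and 0.0853% lower. With 1 library per group, those p-values compare libraries and do not measure variation between animals.

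Promoter sequence was at hand from RefSeq (GRCm38.p6) for 6 of the 10 named genes: Tbx1, Tbx4, Tbx6, Tbx18, Tbx20 and Eomes. Each window runs from 250 bases before to 50 bases after the start of the gene. Tbx18 and Tbx20 are shown because they were far higher in the knockout library, and Tbx6 because its reads were nearly equal. Capitals mark CpG dinucleotides, which are dense in the promoters that Polycomb complexes are known to bind. The windows are chr9:87731211-87731510 on the minus strand for Tbx18, chr9:24774254-24774553 on the minus strand for Tbx20 and chr7:126781233-126781532 on the plus strand for Tbx6.
Tbx18: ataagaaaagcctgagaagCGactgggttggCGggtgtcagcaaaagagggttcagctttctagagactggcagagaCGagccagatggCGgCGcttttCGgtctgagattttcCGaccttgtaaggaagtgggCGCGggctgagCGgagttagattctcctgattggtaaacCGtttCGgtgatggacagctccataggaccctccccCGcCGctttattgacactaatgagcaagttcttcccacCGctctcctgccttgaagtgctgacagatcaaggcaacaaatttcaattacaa
Tbx20: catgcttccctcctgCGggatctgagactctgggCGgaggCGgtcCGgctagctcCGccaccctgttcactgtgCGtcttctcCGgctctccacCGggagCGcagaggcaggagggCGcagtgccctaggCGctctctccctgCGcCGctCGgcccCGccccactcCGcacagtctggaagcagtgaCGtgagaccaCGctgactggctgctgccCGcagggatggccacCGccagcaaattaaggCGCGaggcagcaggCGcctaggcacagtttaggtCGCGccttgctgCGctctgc
Tbx6: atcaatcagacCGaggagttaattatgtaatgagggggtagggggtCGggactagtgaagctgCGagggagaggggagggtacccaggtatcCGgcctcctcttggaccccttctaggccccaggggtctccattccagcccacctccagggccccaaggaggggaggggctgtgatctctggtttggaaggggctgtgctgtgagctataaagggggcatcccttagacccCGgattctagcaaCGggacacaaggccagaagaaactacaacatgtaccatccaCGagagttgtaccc

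The Tbx20 window holds 26 CpG dinucleotides, a number reached by 16.9% of the 32851 RefSeq promoter windows of the same length. The Tbx18 window holds 15, reached by 34.6%, and the Tbx6 window holds 7, which is also the median of all windows. Eomes and Tbx4, which had almost no reads in either library, have 10 and 8. The 2 windows of Tbx1, which has no values here, hold 26 and 16. The T-box binding core GGTGTGA, searched on both strands, was in none of the 7 windows of the 6 genes, while 3.98% of all windows hold it. These counts describe the windows alone, and no binding or histone mark was measured in these libraries.

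Tbx5 and Tbx2 were also higher in the knockout library, at much lower levels. Tbx5 (NM_011537, chromosome 5), known for heart and forelimb development, had 5 and 24 reads (ratio 5.0, 1.87 to 16.8). Tbx2 (NM_009324, chromosome 11), a repressor in heart and limb development, had 3 and 12 reads (ratio 4.17, 1.13 to 23.0). Neither interval lies wholly above 2. The authors' deposited table gives both an adjusted p of 1.

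Tbx3, a repressor related to Tbx2 that acts in limb, mammary gland and heart, had the most wild-type reads of the 9 members and went the other way. The Poisson interval of its level per length there overlaps that of Tbx6. Its row with the highest mean (NM_198052, chromosome 5) had 49 and 25 reads (ratio 0.53, 0.315 to 0.878). The other Tbx3 row (NM_011535) had 36 and 29 reads (ratio 0.84, 0.497 to 1.41). The rows are transcripts of 1 gene that may hold the same reads, and their sum gave a ratio of 0.66. RefSeq places a noncoding gene, Tbx3os1, over part of Tbx3, and other noncoding genes over parts of Tbx15, Tbx5 and Eomes. No source used here states whether counting used strand, so reads of such partners cannot be told apart from those of the T-box genes. By the 2-fold rules below Tbx3 was neither higher nor lower. Tbx3 and Tbx5 lie close together on chromosome 5, yet their intervals do not overlap.

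Tbx6 (NM_011538, chromosome 7), a factor of the presomitic mesoderm, had 10 and 9 reads (ratio 0.94, 0.337 to 2.57). Tbx4, known for hindlimb and lung mesenchyme and placed near Tbx2 on chromosome 11, had 0 and 1 reads. Eomes, which acts in early endoderm, trophoblast and cytotoxic lymphocytes, also had 0 and 1 reads. Those counts give no ratio, and a count of 0 allows up to 3 reads, so a small difference in Tbx4 or Eomes was not detectable at this depth. The Poisson interval of their 1 knockout read reaches 5.57, below the knockout reads of Tbx15, Tbx18 and Tbx20. Markers of T and natural killer cells, where Eomes is used, were uneven: 11 of 12 had a row, with 1004 and 944 reads in sum. Most of these came from Gzma (422 and 373 reads) and Gzmb (276 and 265). Cd3g had 112 and 84 reads and Cd3e 82 and 79. Ptprc (8 and 12 reads), Cd8a (5 and 3), Prf1 (3 and 13) and Ncr1 (1 and 2) were low in both libraries.

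**Figure D2:**
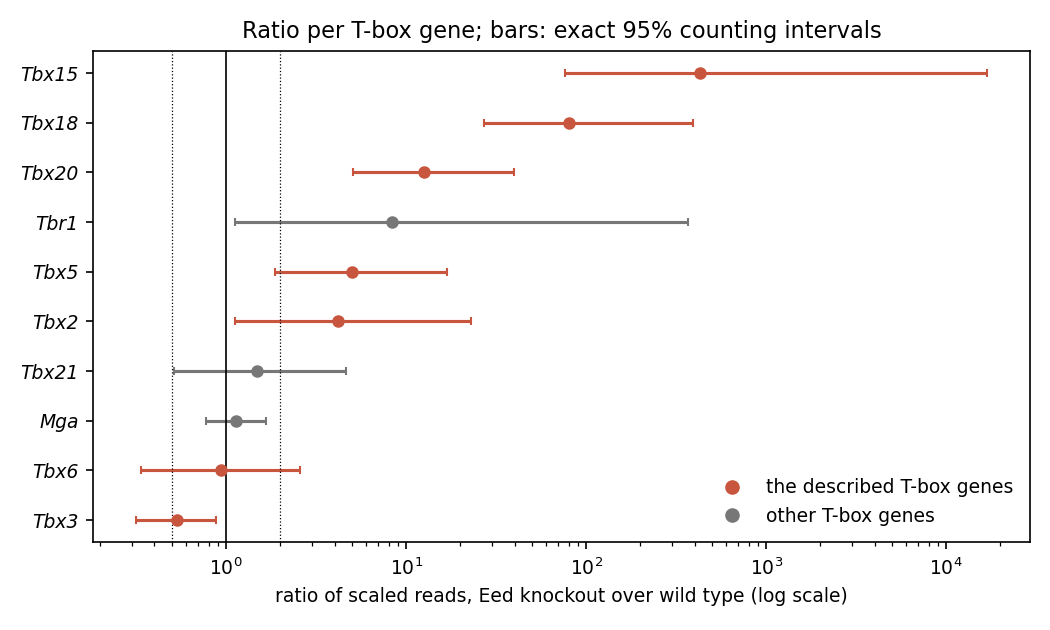
Ratio of scaled reads, Eed knockout over wild type (horizontal axis, log scale), for the T-box genes with more than 3 reads in at least 1 library, with exact 95% counting intervals. A solid line marks equality and dotted lines mark 2-fold; the intervals of Tbx15, Tbx18 and Tbx20 lie wholly above 2, and the interval of Tbx3 (0.315 to 0.878) lies below 1.

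In the knockout library the order per length was Tbx15, Tbx18, Tbx20, Tbx5, Tbx3, Tbx6, Tbx2, Tbx4 and Eomes. Tbx15 stood apart from Tbx18, and Tbx18 from Tbx20, as their Poisson intervals do not overlap. From Tbx20 (6.60 reads per kilobase) down to Eomes (0.281) the Poisson intervals of all neighbours in the order overlap. In the wild-type library Tbx3 was first with 10.3 reads per kilobase, followed by Tbx6 with 5.79. Then came Tbx5, Tbx2, Tbx18, Tbx20 and Tbx15, all at 1.27 or below, and the intervals of all neighbours overlap. Overlap of intervals does not show equal levels, and no test between genes was run.

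Counted by a rule of size, 5 of the 9 members (Tbx2, Tbx5, Tbx15, Tbx18 and Tbx20) were higher by 2-fold or more and none was lower. This rule takes all genes with a row, sets a library with 0 reads to a floor of 3 reads, and leaves uncalled any gene with at most 3 reads in each library, here Tbx4 and Eomes. It called 14.8% of all 17216 genes higher and 4.81% lower. Genes with few wild-type reads are called higher more often. Of the 5823 genes with 10 or fewer wild-type reads, a limit chosen after the data were seen, 28.4% were called higher and 3.8% lower. Of the 8 members under that limit 5 were higher and none lower.

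A stricter rule asks that the whole counting interval lies beyond 2-fold. It called 3 of the 9 members higher (Tbx15, Tbx18 and Tbx20) and none lower, against 6.53% of all genes higher and 1.15% lower. An exact binomial test of reads between the 2 libraries, which is no test of genotype, called after Benjamini-Hochberg adjustment (0.05) 5 members higher (the same 5 as the floor rule) and 1, Tbx3, lower, against 17.9% and 23.3% of all genes. On the log2(value + 1) scale, among genes whose mean reached 20 normalized reads, 4 members passed the filter: Tbx15, Tbx18, Tbx20 and Tbx3. The first 3 passed through their knockout values alone, so their count supports nothing by itself. Their log2 ratios were 7.15, 5.60 and 3.20, and that of Tbx3 was -0.86. By this rule 3 of these 4 were higher and none lower, with 11.2% of all 10879 genes under the same filter called higher and 3.58% lower.

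**Figure D3:**
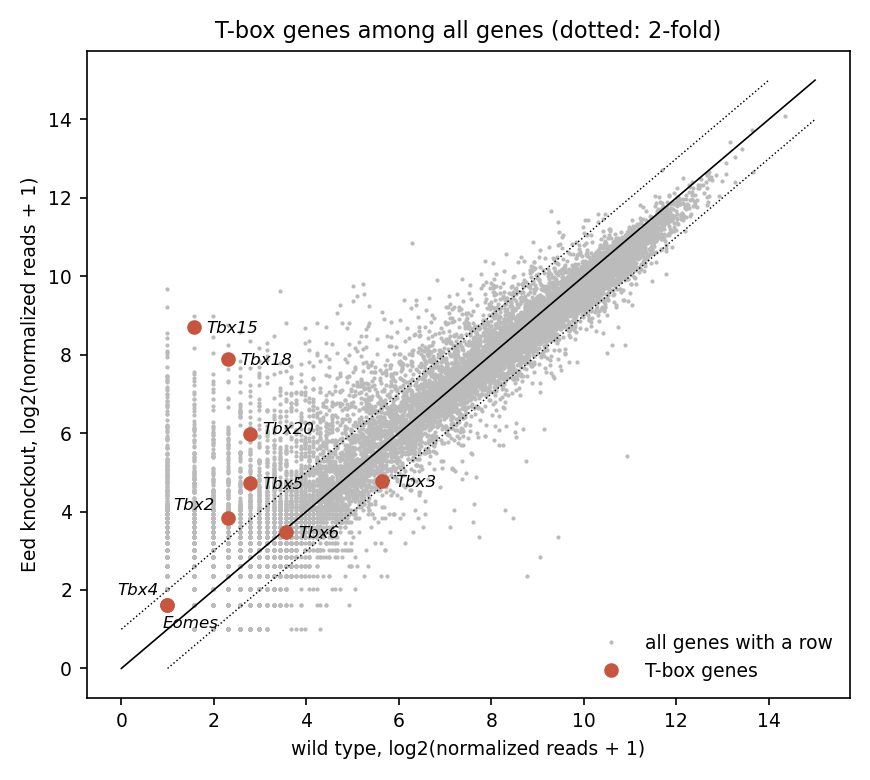
Each gene's value in the wild-type library (horizontal) and the Eed knockout library (vertical), both as log2(normalized reads + 1), with the T-box genes in red, the equality line solid and 2-fold lines dotted. Tbx15 (log2 ratio 7.15), Tbx18 (5.60) and Tbx20 (3.20) lie far above the 2-fold line at low wild-type values, and Tbx3 (-0.86) lies below the equality line. Tbx4 and Eomes share 1 point.

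By the distance between their pairs of log2 values, Krt4, Barx1 and Serpine2 were the genes most like Tbx15, over 2 libraries. Krt4, a keratin of stratified epithelium, had 1 and 420 reads at a distance of 0.0381. Barx1, a homeobox factor of the embryonic stomach mesenchyme, had 1 and 496 reads (distance 0.277). Serpine2, a secreted protease inhibitor, had 2 and 343 reads (distance 0.484). With 2 values per gene, the likeness says only that their levels were similar.

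The other T-box genes with a row were few and low. Mga, a large protein that joins a T-box to a Max-binding domain, was the most abundant, with 56 and 61 reads (ratio 1.14, 0.777 to 1.66). Tbx21, the T helper cell factor T-bet, had 7 and 10 reads (ratio 1.49, 0.512 to 4.61). Tbr1, a factor of cortical neurons, had 1 and 8 reads (ratio 8.34, 1.12 to 370). T, which encodes Brachyury, had 2 and 1 reads, and Tbx19, a pituitary factor, had 0 and 1. Tbr1 was thus the 1 of these 5 genes that the floor rule called higher, and it was under the mean of 20. That rule called 14.8% of all genes higher, and 28.4% of those with 10 or fewer wild-type reads, so the count lies near these shares. Tbx10 and Tbx22 were not analysed here.

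The genes beside the T-box genes on their chromosomes did not share the large ratios. Taking 2 genes with a row on each side of each of the 10 named genes gave 33 neighbours. A mean of at least 20 normalized reads was reached by 20 of them. None of these 20 was called on the log2 scale, where 14.8% of all tested genes were called in either direction. Their log2 ratios ran from -0.88 to 0.65, with a median of -0.30 beside -0.11 over all genes tested. The neighbour order was read from RefSeq on another build than the authors', for order only.

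Around Tbx15, the mitochondrial tRNA synthetase gene Wars2 had 207 and 289 reads (ratio 1.46, 1.21 to 1.75). Around Tbx18, Nt5e, a cell surface nucleotidase, had 1527 and 2301 reads (ratio 1.57, 1.47 to 1.68). Around Tbx20, Herpud2 had 543 and 388 reads (ratio 0.745, 0.652 to 0.850). These 3 were picked after their values were seen. The noncoding gene Tbx3os2, between Tbx3 and Tbx5 and likewise picked, had 124 and 85 reads, a ratio of 0.714 (0.536 to 0.949), on the same side of 1 as Tbx3. By the floor rule, over all 33, Ypel3 (2 and 5 reads), Spag17 (1 and 5) and Itga9 (6 and 15) were higher and Bcas3os1 (6 and 2) lower, and the interval of each includes 1. This rule called 14.8% of all genes higher and 4.81% lower.

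**Figure D4:**
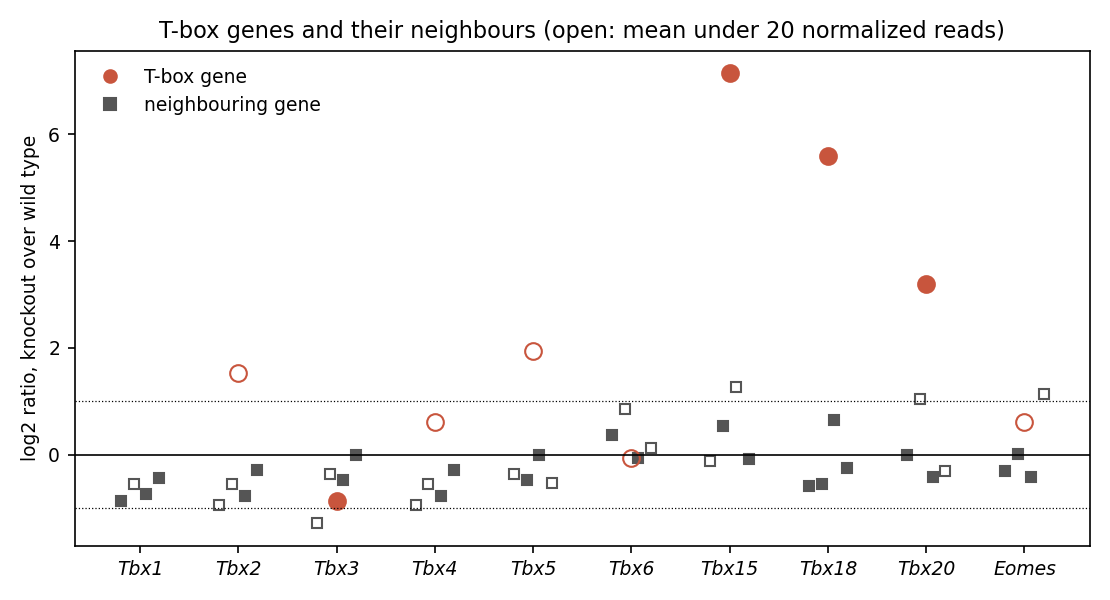
Log2 ratio, knockout over wild type on the log2(value + 1) scale (vertical axis), of each T-box gene (red circles) and of up to 4 neighbouring genes (grey squares); open symbols have a mean under 20 normalized reads and dotted lines mark 2-fold. The filled neighbours lie between -0.88 and 0.65, while Tbx15, Tbx18 and Tbx20 lie at 7.15, 5.60 and 3.20; Tbx1 has no circle.

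Partners and corepressors of T-box proteins gave a mixed picture. Of 18 listed, 15 had a row and 8 had a mean of at least 20, with 1 higher and 1 lower, where 11.2% and 3.58% of all genes under that filter were. Their log2 ratios had a median of -0.34, beside -0.11 over all genes. Ripply3, a corepressor that binds T-box proteins, had 18 and 55 reads (ratio 3.18, 1.84 to 5.76). Tle4, a corepressor of the Groucho family, had 1152 and 545 reads and was 2.03-fold lower (1.83 to 2.25), a call lost under each of the 3 other scalings. The GATA factors that work with T-box proteins in the heart are also intestinal factors: Gata4 had 2158 and 1169 reads, 1.77-fold lower (1.65 to 1.90), and Gata6 1404 and 927, 1.45-fold lower (1.34 to 1.58), both within 2-fold.

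Over all 15 the floor rule called 5 higher and 2 lower, where 14.8% and 4.81% of all genes were called, and 28.4% higher among those with 10 or fewer wild-type reads. The higher ones, named after their values were seen except Ripply3, were Pax3 (0 and 34 reads, at least 11.8-fold higher), Hand2 (1 and 26), Nkx2-5 (1 and 4), Ripply1 (3 and 6) and Ripply3. The intervals of Nkx2-5 (0.413 to 205) and Ripply1 (0.445 to 12.9) include 1. Pax3 acts in somites and Hand2 and Nkx2-5 in the heart, beside T-box factors. The lower ones were Tle4 and Tle3 (17 and 6 reads).

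Of 25 genes known to act downstream of T-box factors in other tissues, 18 had a row and 10 a mean of at least 20. Of these 10, 4 were higher and 1 was lower, where 11.2% and 3.58% of all genes under the same filter were. Their median log2 ratio was 0.36, beside -0.11 over all tested genes. Sox17, Gja1 and Cdkn2a passed the filter through their knockout values alone, so the count supports nothing by itself. Sox17, an endoderm factor downstream of Eomes, had 1 and 279 reads. Gja1, a gap junction gene that Tbx2, Tbx3 and Tbx18 repress in the heart, had 1 and 182 reads (ratio 190, 33.6 to 7533). Cdkn2a, which Tbx2 and Tbx3 are known to repress, had 1 and 163 reads, and Foxa2, a factor of gut endoderm, 138 and 477. The lower one, named after its values were seen, was Bmp2, with 1187 and 475 reads, 2.40-fold lower (2.15 to 2.67). Whether these values follow those of the T-box genes was not tested. Cdh1, which Tbx2 and Tbx3 can repress, had 5161 and 4817 reads. Also within 2-fold were Cdkn1a (69 and 72 reads), Dll1 (1359 and 1229), Hcn4 (21 and 21) and Lhx1 (18 and 27). Over all 18 genes the floor rule called 5 higher and 1 lower, where 14.8% and 4.81% of all genes were called. It called 28.4% higher among genes with 10 or fewer wild-type reads. Beside the 4 named above, the higher ones included Bmp4 (1 and 26 reads).

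Marker lists of tissues that use T-box factors were read in the same libraries. Fibroblast and smooth muscle markers, 10 of 12 with a row, summed to 407 wild-type and 363 knockout reads, most of them from Vim (265 and 210) and Tagln (113 and 100). These were the 2 with a mean of at least 20, and both were within 2-fold. The floor rule called 4 of the 10 higher and none lower, beside 14.8% and 4.81% of all genes. These were Lum (0 and 16 reads, at least 5.56-fold higher), Acta2 (4 and 8), Des (2 and 8) and Cnn1 (2 and 5). The intervals of Acta2 (0.558 to 9.46), Des (0.832 to 40.3) and Cnn1 (0.427 to 27.4) include 1. Of the rest, Pdgfra had 1 and 0 reads, Dcn 0 and 1, Actg2 1 and 1 and Thy1 19 and 14. Mesothelium markers, all 6 with a row, summed to 5 and 64 reads. All of them were under a mean of 20, and 4 were at 0 in the wild type, among them Wt1 (0 and 14 reads) and Bnc1 (0 and 20).

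Pericyte and endothelium markers, 7 of 10 with a row, summed to 51 and 149 reads. The floor rule called 4 of them higher, Cspg4 (9 and 40 reads), Vwf (22 and 54), Kdr (2 and 21) and Kcnj8 (2 and 17), while Tek had 12 and 10, Cdh5 4 and 5 and Rgs5 0 and 2. Heart and skeletal muscle markers, 7 of 12 with a row, summed to 125 and 354, most of it from Myl7 with 100 and 291 reads. Myh7 had 1 and 20 reads and Tnni3 20 and 37, while Actc1 had 1 and 1 and Ckm 2 and 2. Enteric neuron and glia markers, 6 of 9 with a row, summed to 61 and 131. Ret had 20 and 68 reads and Uchl1 2 and 17, while Tubb3 had 21 and 20, S100b 3 and 2 and Sox10 0 and 1. Exocrine pancreas markers, 9 of 11 with a row, summed to 154 and 1838, and 8 were higher. By the floor rule 5 of the 6 mesothelium and 2 of the 7 muscle markers were higher in the knockout library. So were 2 of the 6 neuron and glia and 2 of the 11 T and natural killer cell markers. None of any of these lists was lower. This rule called 14.8% of all genes higher and 4.81% lower, and 28.4% higher among those with 10 or fewer wild-type reads. The counts for muscle, for neurons and glia and for T and natural killer cells lie near those shares. The part of such cells in these values was not tested.

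**Figure D5:**
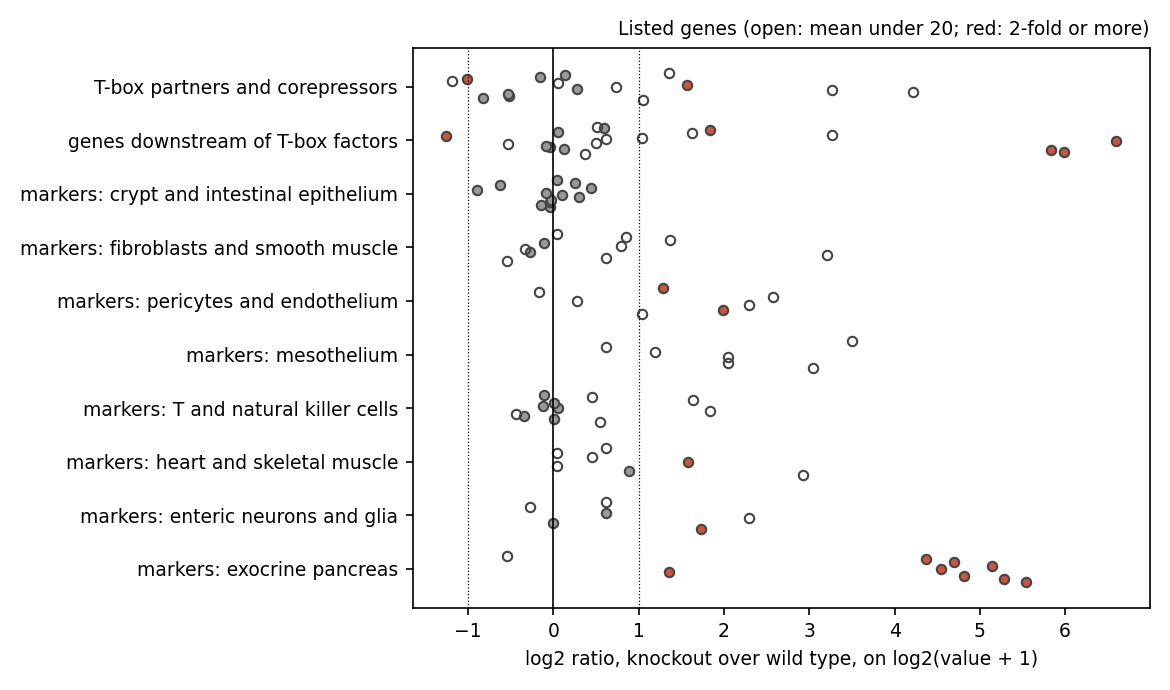
Log2 ratio, knockout over wild type on the log2(value + 1) scale (horizontal axis), of each gene in the lists of T-box partners, downstream genes and cell type markers; open circles have a mean under 20 normalized reads, grey ones lie within 2-fold and red ones at 2-fold or more. Crypt markers lie within 2-fold, all mesothelium markers are open circles, and 8 exocrine pancreas markers are red.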

How the data were processed

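Crypt RNA of the small intestine, 1 wild-type and 1 Eed knockout sample, was made into mRNA libraries with a TruSeq kit, per the labels' protocols. TopHat, mm9 and DESeq are named in the submitters' processing notes, without versions; no source used here gives the counting tool or the strand setting. The authors deposited 1 table of 18766 RefSeq rows with 1 column of signal per library, whose values show reads divided by a size factor. Within a relative tolerance of 1e-06, 100% of values in each library are whole multiples of its lowest value, and no row is at that lowest value in both, so 1 read was inferred to have been added to every value, and reads printed are recovered steps minus 1. The deposited ratio (fold change), its log2, and the p-values, unadjusted and adjusted, are the authors'.

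Rows were joined by accession to RefSeq genes (GRCm38.p6), 18510 rows (98.6%), for names and neighbours only. Transcript lengths came from GENCODE. Of 31 symbols turned into dates, 30 were restored. Log2 ratios use a pseudocount of 1. Ratios carry exact intervals (Clopper-Pearson, given each gene's summed reads). An exact binomial test on the reads with Benjamini-Hochberg adjustment sets the 2 libraries, not the genotypes, against each other and called 3082 genes higher and 4014 lower of 17216. Named genes were all members, the other T-box genes, up to 4 per list by size of log2 ratio, neighbours called on the log2 scale, the 3 genes most like the member with the most knockout reads, and Eed. The neighbours named, none of which was called on the log2 scale, and the markers, downstream genes and partners outside the 4 per list were named after their values were seen. Members and lists were chosen with earlier results of these data known. The functions were tested on simulated data. Software was SciPy 1.17.1, pandas 2.3.3, NumPy 2.4.6, Matplotlib 3.10.9 and Python 3.11.15.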

Additional observations from a re-analysis of the deposited data

How the results depend on the processing

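No paired analysis was possible because each genotype has 1 library, and for the same reason no library could be left out. Ratios of the 7 members with more than 3 reads in a library stayed inside their own counting intervals under 3 other scalings and with the rows of a symbol summed. The 3 scalings multiply every ratio by a common factor of 1.07 to 1.13, small beside these intervals. For the scalings that outcome was therefore fixed in advance and shows nothing about stability. Scaling to library totals moved the median log2 ratio of all tested genes from -0.11 to 0.07, by 0.18, and left the member counts of the log2 and floor rules as they were, while the interval rule called 4 members higher in place of 3, as the interval of Tbx5 then lay above 2. The log2 rule called 3 members higher and 0 lower; with no filter it called 5 higher, and a threshold of 1.5-fold added 1 lower, Tbx3, as it did for the floor rule (0 to 1). The exact binomial test with Benjamini-Hochberg adjustment called 5 members higher and 1 lower, where the interval rule called 3 and 0. With no filter 1 other T-box gene was called in place of 0. Partner calls, 2 in the report, were 5 with a mean of at least 10, 1 with a mean of at least 50, 7 with no filter, 1 with upper quartile scaling and 0 at 4-fold; under the other 2 scalings the count was 2, with Pax3 in place of Tle4. Downstream calls, 5 in the report, were 8 with no filter and 3 at 4-fold. Neighbour calls, 0 in the report, were 1 with a mean of at least 10, 4 with no filter and 4 at 1.5-fold. Filters and thresholds change these counts by how many genes they admit. The share of all genes called under each changed filter or threshold is not given here, so these counts cannot be set against it. Of 90 alternative counts, 74 were within 1.5 times the reported one. Depth limits Tbx2, Tbx4, Tbx6 and Eomes most, with 12 reads or fewer in each library.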

Other observations

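Grouped by T-box subfamily, a grouping chosen after the values were seen, the 3 members with a row of the Tbx1 subfamily (Tbx15, Tbx18 and Tbx20) had 9 wild-type and 700 knockout reads in sum. The 4 members of the Tbx2 subfamily (Tbx2, Tbx3, Tbx4 and Tbx5) had 57 and 62 reads. Within the latter, Tbx3 supplied most wild-type reads, whereas Tbx3 and Tbx5 had nearly equal knockout reads, 25 and 24. The Tbr1 subfamily (Tbr1, Eomes and Tbx21) had 8 and 19 reads, T with Tbx19 had 2 and 2, and Tbx6 with Mga had 66 and 70. These sums were not tested.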
